A study of Mus musculus with 2 samples.

Results

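The dual-specificity phosphatases (Dusp genes) and the non-receptor protein tyrosine phosphatases (Ptpn genes) were examined in mouse CD4 T cells activated with antigen-presenting cells (APC) that did or did not carry a transgene for the OX40 ligand (OX40L). Members were all genes of the array whose symbol is Dusp or Ptpn followed by a number. The array annotation gave 37 such genes, 22 Dusp and 15 Ptpn, among 17097 genes with a value. They were read by 67 probe sets, a probe set being a group of short probes for 1 transcript. Another probe set with a Dusp symbol also carried the symbol of another gene and was left out. The study has 1 array for each of the 2 kinds of APC. Naive CD4 T cells (CD62L high, CD44 low, Foxp3-negative) of 6-week-old C57/Bl6 mice with a Foxp3-eGFP reporter, which marks regulatory T cells green, were cultured for 48 hours with soluble anti-CD3 antibody. That antibody triggers the T cell receptor and was present in both groups. The APC were CD3-negative splenocytes treated with mitomycin C, which blocks division, from Wt B6 mice in the group called Wt APC and from OX40L transgenic mice in the group called OX40L-Tg APC. Living CD4 T cells were then sorted from the cultures. The promoter of the transgene and the number of mice behind each array are not given in the sources used here.

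These enzymes take phosphate off the signalling proteins that T cell activation switches on. The classical dual-specificity phosphatases act on mitogen-activated protein (MAP) kinases, removing phosphate from both the threonine and the tyrosine that keep ERK, JNK or p38 active, and several are themselves induced by those kinases as feedback. The Ptpn enzymes act on phosphotyrosine. In T cells they are best known for restraining Lck and ZAP70 below the T cell receptor and the JAK kinases below cytokine receptors, while the SH2-domain member encoded by Ptpn11 also promotes ERK signalling. OX40, a receptor of the TNF receptor superfamily, adds a costimulatory signal to that of the T cell receptor.

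With 1 array per group there was no replicate, so no difference was tested and no spread between cultures could be measured. Paired intensities, in linear units, are given for Wt APC and then OX40L-Tg APC. A difference is the log2 value with OX40L-Tg APC less that with Wt APC, so positive numbers mean higher with OX40L-Tg APC. Both arrays had a median of 14.7 units over all probe sets, which served as the floor for counting a gene. The background level was set at the 95th percentile of 52 genes typical of other organs. It came to 36.3 units for Wt APC and 38.2 for OX40L-Tg APC. Of the 52 genes, 4 were above it on at least 1 array, among them Tg (3302 and 4491 units) and Krt10 (74.9 and 67.5 units). So few genes set the level that members close to it could fall on either side. A fold against a value below background is given as a lower bound. Across the 10541 genes above the floor on at least 1 array the median difference was 0.02, 90% of genes lay between -0.47 and 0.50, and 54.0% were higher with OX40L-Tg APC. Of the T cell markers 11 of 11 measured were above background, and 10 of them were lower with OX40L-Tg APC, with a median of -0.27. In bulk RNA, fewer cells of a type and less RNA per cell cannot be told apart. The labels name adipose tissue in their extraction text, but the adipocyte genes Adipoq, Fabp4, Lep and Retn were below background on both arrays and Lipe, the only other one measured, read 49.6 and 53.1 units. Of the 6 regulatory T cell markers, Foxp3 read 8.25 and 8.50 units, below background. The other 5 were above it on at least 1 array, 3 of them higher and 2 lower with OX40L-Tg APC. Their differences ranged from -0.77 (Ikzf2) to 1.02 (Ikzf4). Of the CD8 T cell markers, Cd8a was below background on both arrays and Cd8b1 read 191 and 239 units.

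Of the 37 phosphatase genes 23 were above background on at least 1 array, and most of these differed by less than 1.5-fold. By measured values, 2 of the 28 above the floor differed by at least 2-fold, which is 7.14% of them, beside 2.72% of all genes above the floor. Ptpn22 was lower and Ptpn4 higher with OX40L-Tg APC, directions in which 1.17% and 1.56% of all genes passed. With values below background raised to the background level, a setting chosen after seeing the data, only Ptpn22 stayed past 2-fold, 4.35% of the 23 members beside 2.59% of all genes above background. At 1.5-fold the number was 5, or 17.9%, beside 7.21% of all genes, with 3.36% of all genes lower and 3.85% higher by as much. It added Ptpn12 and Dusp22, both lower, and Ptpn14, which was higher but below background on both arrays. Shares out of so few genes are coarse, since 1 gene more or less shifts them visibly. Of the 28 members, 26 passed the floor on both arrays and 2, Dusp9 and Ptpn5, on the OX40L-Tg APC array only, where they were higher. The other 9 members were below the floor on both arrays.

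**Figure D1:**
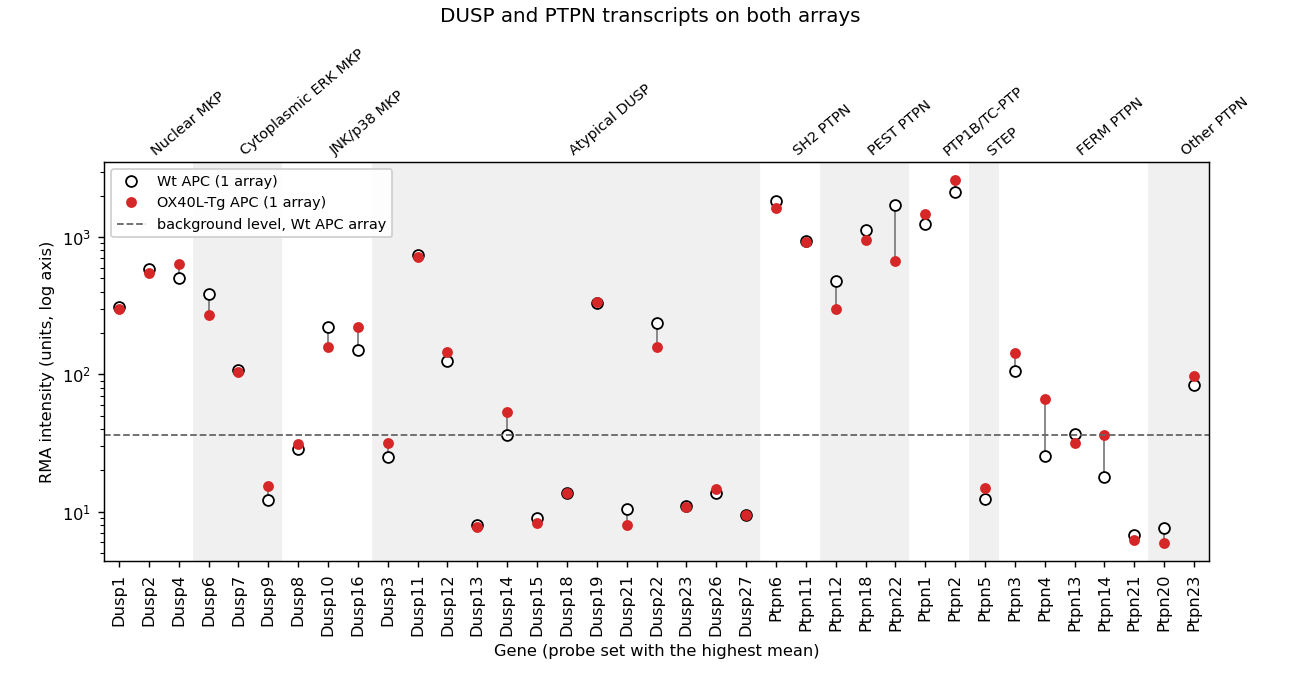
RMA intensity in units (log axis) of the 37 Dusp and Ptpn genes, each at its probe set with the highest mean, with 1 open point for the Wt APC array and 1 red point for the OX40L-Tg APC array, grouped by enzyme type. The line between points is longest for Ptpn4 (25.3 and 65.8 units) and Ptpn22 (1729 and 675 units). Heights of different genes are not comparable because each probe set binds with its own strength.

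The sequences before the transcription start are shown for the 3 of the 4 members of at least 1.5-fold and above background that had an entry in the RefSeq promoter table (Ptpn22, Ptpn4 and Dusp22), and for Dusp1, the classical immediate-early member, as one that differed by only -0.04. RefSeq promoters of build GRCm38.p6 were found for 29 of the 37 members. Each line gives the 250 bases before the most upstream start, 5′ to 3′ on the gene's strand, with motif matches on either strand in capitals.
Ptpn22, chr3:103859545-103859794, plus strand: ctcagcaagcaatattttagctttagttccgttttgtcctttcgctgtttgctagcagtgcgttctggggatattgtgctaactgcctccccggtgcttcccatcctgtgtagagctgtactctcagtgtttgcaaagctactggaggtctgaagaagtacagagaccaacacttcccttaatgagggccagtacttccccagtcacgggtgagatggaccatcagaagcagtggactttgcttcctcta
Ptpn4, chr1:119837072-119837321, minus strand: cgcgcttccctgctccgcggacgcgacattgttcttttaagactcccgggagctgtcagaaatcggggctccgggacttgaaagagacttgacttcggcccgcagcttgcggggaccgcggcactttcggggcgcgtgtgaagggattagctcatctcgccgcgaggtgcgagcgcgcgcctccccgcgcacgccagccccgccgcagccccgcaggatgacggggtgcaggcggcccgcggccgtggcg
Dusp22, chr13:30659809-30660058, plus strand: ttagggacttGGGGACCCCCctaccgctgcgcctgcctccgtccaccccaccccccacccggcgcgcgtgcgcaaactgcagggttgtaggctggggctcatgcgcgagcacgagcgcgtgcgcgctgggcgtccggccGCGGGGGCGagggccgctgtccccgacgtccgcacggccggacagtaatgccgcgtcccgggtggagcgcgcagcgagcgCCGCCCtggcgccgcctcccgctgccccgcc
Dusp1, chr17:26508473-26508722, minus strand: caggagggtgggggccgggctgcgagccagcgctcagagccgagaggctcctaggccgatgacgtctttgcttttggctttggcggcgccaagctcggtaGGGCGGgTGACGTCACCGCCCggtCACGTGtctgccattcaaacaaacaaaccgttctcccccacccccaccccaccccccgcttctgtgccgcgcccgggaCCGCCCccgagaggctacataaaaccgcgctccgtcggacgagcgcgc
The 9 motifs searched were AP-1 (TGANTCA), the cAMP response element CRE (TGACGTCA), the NFAT core (GGAAA), the NF-kB consensus, STAT (TTCNNNGAA), the SP1 core (GGGCGG), ETS (CCGGAAGT), the E-box (CACGTG) and EGR (GCGGGGGCG). Among these windows, those of Ptpn22 and Ptpn4 held 0 matches to any of the 9. The Dusp22 window held 1 NF-kB match from 240 to 231 bases before the start, 1 EGR match from 111 to 103 and 1 SP1 match from 31 to 26. The Dusp1 window held a CRE from 143 to 136 bases before the start, directly between 2 SP1 matches, another SP1 match nearer the start and an E-box from 126 to 121. In the printed windows no match overlapped another, though the CRE before Dusp1 runs straight into the SP1 match that follows it. A CRE was present before 3 of the 29 members (Dusp1, Dusp8 and Ptpn11), or 10.3%, beside 1.60% of 27025 promoters. The EGR letters were present before 5 members (17.2% beside 2.55%) and the SP1 core before 17 (58.6% beside 33.0%). AP-1 letters were present before 1 member (3.45% beside 6.85%), NF-kB letters before 1 (3.45% beside 3.74%), STAT letters before 2 (6.90% beside 7.14%), E-box letters before 2 (6.90% beside 6.04%), NFAT core letters before 10 (34.5% beside 55.6%), and ETS letters before 0 (beside 2.92%). These matches describe letters only, and no binding was measured.

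Among the Dusp genes the MAP kinase phosphatases of the nucleus, which immediate-early signals induce, differed little. Dusp1, which acts on p38 and JNK, read 309.7 and 301 units. Dusp2, first found in activated T cells, read 582 and 550.1 units, a difference of -0.08. Dusp4, another ERK and JNK phosphatase, read 507 and 633 units, so it was higher with OX40L-Tg APC by 0.32. Each of these 3 genes was read by 1 probe set well above background, and all were within 1.5-fold. Dusp5, the ERK-selective member of the same class, was not analysed here.

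Among the cytoplasmic phosphatases that act on ERK, Dusp6 differed most. Dusp6, the classical feedback inhibitor of ERK, read 383 and 269 units, lower with OX40L-Tg APC by 1.43-fold, a difference of -0.51. Dusp7, a close relative, read 107 and 104 units, and its other probe set above background gave 0.28, so its probe sets disagreed in sign. Dusp9 read 12.2 and 15.4 units, both below background. Dusp4 and Dusp6, which both act on ERK, thus lay on opposite sides of 0, neither of them past 1.5-fold.

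The phosphatases that prefer JNK and p38 were likewise divided. Dusp10, which restrains JNK in T helper cells, read 221 and 159 units, a difference of -0.47. Dusp16, a JNK phosphatase that shuttles between nucleus and cytoplasm, read 149.8 and 223 units, higher with OX40L-Tg APC by 1.49-fold. Its difference of 0.57 rests on 1 of its 2 probe sets, since the other was below background on both arrays, and the mean over both gave 0.24. Dusp8 read 28.5 and 30.9 units, below background. The pair Dusp10 and Dusp16 therefore differed in direction, as Dusp6 and Dusp4 did.

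The atypical Dusp genes, small enzymes that lack the kinase-binding domain of the others, held the only Dusp gene past 1.5-fold. Dusp22, which is known to act on Lck in T cells, read 238 and 158 units, lower with OX40L-Tg APC by 1.51-fold, a difference of -0.60 in its 1 probe set. Dusp14, which acts on the TAK1-binding protein TAB1 below the T cell receptor, read 35.9 and 52.8 units, at least 1.45-fold higher against the background level. The others above background differed by less. Dusp11, an RNA phosphatase, read 739 and 722 units, and its 2 probe sets gave -0.03 and -0.02. Dusp12 read 126 and 145 units, a difference of 0.21. Dusp19 read 331 and 335 units.

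In all, 12 of the 22 Dusp genes were above background on at least 1 array, 5 of them higher and 7 lower with OX40L-Tg APC. Their median difference was -0.03 and their range -0.60 to 0.57. Of the 15 above the floor 0 were past 2-fold, beside 2.72% of all genes above the floor. The median of the 15 was 0.02, equal to that of all genes. Its sign changed under 7 of the 9 alternative settings, so no direction is given for the family. The 10 Dusp genes below background on both arrays were Dusp3, Dusp8, Dusp9, Dusp13, Dusp15, Dusp18, Dusp21, Dusp23, Dusp26 and Dusp27.

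The Ptpn genes held the largest differences. In the subgroup with a proline-rich tail, named after the first PTP-PEST enzyme, all 3 genes read lower with OX40L-Tg APC. Among the other subgroups, the genes above the floor that read lower too were Ptpn6, Ptpn11 and, near background, Ptpn13. These differed by less than any of the PEST genes. Ptpn22, which binds the kinase Csk and takes phosphate off Lck and ZAP70, read 1729 and 675 units, 2.56-fold lower with OX40L-Tg APC. Its difference of -1.36 ranked 52nd from the lowest among the 10541 genes above the floor, and it rests on 1 probe set. Under the 9 alternative settings it stayed between -1.38 and -1.34. Only the pseudocount and the changes of scaling could move a bright gene with 1 probe set. Ptpn12, which encodes PTP-PEST and acts on adhesion and cytoskeletal proteins, read 477 and 298 units, 1.60-fold lower. Its 4 probe sets were all above background and lay between -0.75 and -0.57. Ptpn18, the third of the subgroup, read 1119 and 946 units, 1.18-fold lower. The range of the subgroup, from -1.36 to -0.24, held no value above 0. In the FERM and SH2 subgroups the lowest member above the floor was at -0.22 and -0.17, close to Ptpn18.

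**Figure D2:**
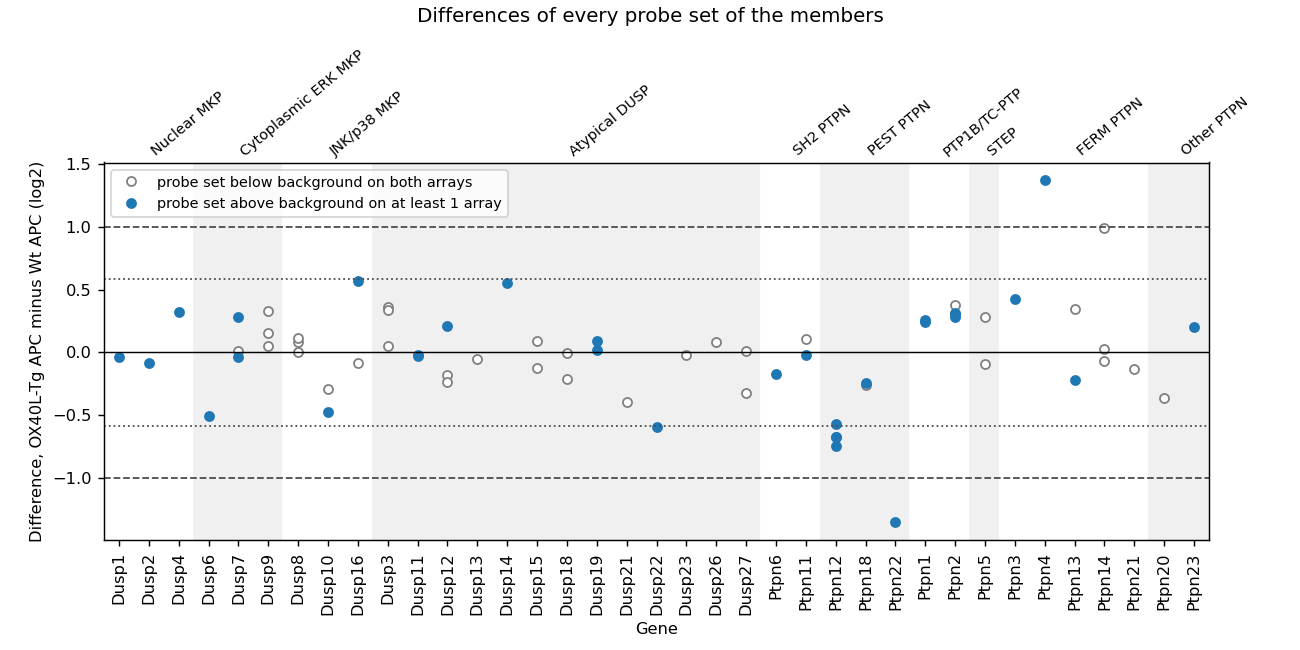
Difference on the log2 scale (OX40L-Tg APC minus Wt APC) of each of the 67 probe sets of the 37 members, grouped by enzyme type, with filled points above background on at least 1 array. Dashed lines mark 2-fold and dotted lines 1.5-fold. The 4 filled points of Ptpn12 lie together between -0.75 and -0.57, Ptpn22 at -1.36 and Ptpn4 at 1.38.

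The SH2-domain phosphatases, which dock on phosphorylated tails of inhibitory receptors, were well above background and nearly equal on both arrays. Ptpn6, which encodes the inhibitory phosphatase of haematopoietic cells, read 1838 and 1628 units, a difference of -0.17. Ptpn11, which is expressed in most cell types, read 933 and 917 units, a difference of -0.02. Its second probe set was below background, and with the mean of both the difference was 0.04. Neither reached 1.5-fold.

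The closely related pair Ptpn1 and Ptpn2 read higher with OX40L-Tg APC by a small and even amount. Ptpn1, which encodes PTP1B and acts on JAK2 and the insulin receptor, read 1254 and 1479.7 units, and its 2 probe sets gave 0.24 and 0.25. Ptpn2, which acts on JAK1, JAK3, STAT proteins and Lck, read 2131 and 2593 units, and its 3 probe sets above background lay between 0.28 and 0.32. Both genes were within 1.5-fold. The SD between probe sets of 1 gene, over 3108 genes with several above background, was 0.14, which measures probe scatter and not the spread between cultures.

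The Ptpn genes with a FERM domain, which link membrane proteins to the cytoskeleton, held the phosphatase gene with the largest difference upward. Ptpn4, which can act on the T cell receptor zeta chain, read 25.3 units on the Wt APC array, under the background level, and 65.8 units on the other. It was at least 1.81-fold higher against the background level. The measured difference of 1.38, in its 1 probe set, depends on that dim value and was 0.99 with a pseudocount of 16 units. Ptpn3, its closest relative, read 107 and 144 units, a difference of 0.43. Ptpn13 read 36.6 and 31.5 units, near background on both arrays, and its other probe set, below background on both, gave 0.34. Ptpn14 read 18.0 and 35.9 units, below background, and its other 2 probe sets gave 0.03 and -0.07. Ptpn21 was below the floor.

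Of the remaining Ptpn genes, Ptpn23, an endosomal family member, read 84.1 and 96.7 units, a difference of 0.20. Ptpn5, a brain phosphatase, and Ptpn20 were below background, and Ptpn7 and Ptpn9 were not analysed here. Of the 15 Ptpn genes, 11 were above background on at least 1 array, 5 of them higher and 6 lower, with a median of -0.02. Over the 13 above the floor the median was 0.20, and it turned to -0.10 with the floor at the 75th percentile, so the family has no settled direction. Across both families, 6 members had several probe sets above background, and in 5 of these all had the same sign, Dusp7 being the exception.

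**Figure D3:**
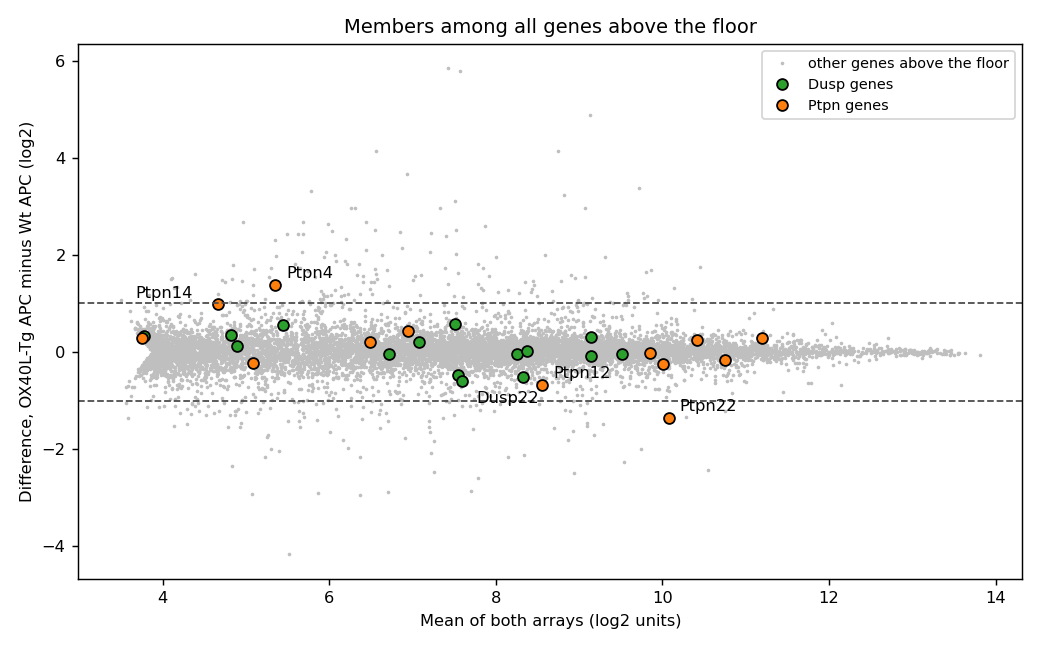
Difference (log2, OX40L-Tg APC minus Wt APC) against the mean of both arrays (log2 units) for the genes above the floor, with the 15 Dusp genes in green and the 13 Ptpn genes in orange. Ptpn22, at -1.36, lies apart from the grey cloud at its level, while Ptpn4 and Ptpn14 lie at low intensity, where the cloud is wider.

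Genes that these phosphatases act on or answer to were read from lists of related genes. Of the MAP kinase cascade, 28 of 30 measured genes were above the floor, 14 of them higher and 14 lower, with a median of 0.02. Mapk12, which encodes p38 gamma, read 16.3 units, below background, and 44.5 units, at least 1.23-fold higher. By such bounds 0 genes of the list passed 2-fold, beside 2.59% of all genes above background. Map3k8, a kinase that feeds ERK, read 217 and 350.2 units, and Mapkapk2, a p38 target, 425 and 654 units. Both were higher with OX40L-Tg APC by over 1.5-fold. Of 13 Ras regulators above the floor, the Ras inhibitor Rasa3 was past 2-fold, lower at 316 and 148 units. The exchange factor Rasgrp2 read 44.6 and 19.1 units, the latter below background, so it was at least 1.17-fold lower. By bounds only Rasa3 passed 2-fold, 7.69% of the 13.

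Genes known to be induced through ERK diverged. Over 18 genes above the floor the median was 0.22, and 3 passed 2-fold upward and 1 downward. These are 28.6% of the 14 genes above background, beside 2.59% of all genes above background. Egr2 read 197 and 536 units, Fosl2 218 and 565 units, and Ier3, a stress-induced survival gene, 170.2 and 400.2 units. Phlda1, an early gene of receptor signalling, read 386 and 183 units. The first 3 were higher and Phlda1 lower with OX40L-Tg APC. Of the 18 genes 11 were higher and 7 lower. Dusp6, itself induced through ERK, was lower, while Dusp4 was higher. With genes below background on both arrays left out the median of the list was 0.04.

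Among partners of the Ptpn enzymes below the T cell receptor, 16 of 21 genes above the floor were lower with OX40L-Tg APC, with a median of -0.23, beside -0.27 for the T cell markers, with which the list shares genes. Txk, a Tec family kinase, was the only one past 2-fold, at 284 and 38.4 units. That is 5.26% of the 19 above background, beside 2.59% of all genes. Fyn, a Src family kinase that Ptpn enzymes act on, read 978 and 616 units. Cd3e and Cd3g, chains of the receptor complex, differed by -0.67 and -0.62. Lck and Csk were not analysed here. The JAK and STAT list, which also holds the cytokine receptor chains Il2rb and Il4ra, had a median of 0.03 over 12 genes. Jak2, which Ptpn1 acts on, read 603 and 1335 units, the only one past 2-fold, or 8.33% of the 12. Stat4 and Stat5a differed by -0.58 and 0.56.

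Receptors that carry inhibitory tyrosine motifs, docking sites for the Ptpn6 and Ptpn11 proteins, or that are related inhibitory receptors diverged widely. Over 15 genes above the floor the median was 0.06, and by lower bounds 1 passed 2-fold upward and 1 downward. These are 18.2% of the 11 above background, beside 2.59% of all genes. Lilrb4a read 102 and 1802 units in a probe set marked as shared between transcripts, and Pecam1 114 and 36.4 units, at least 2.97-fold lower. Cd200r1 read 16.98 and 48.03 units, at least 1.32-fold higher. Ptpn6 and Ptpn11 themselves were within 1.5-fold on the same arrays. The list of receptor-type tyrosine phosphatases had 8 genes above the floor, with a median of 0.01 and 0 past 1.5-fold, beside 7.21% of all genes. Among these 8 was Ptprcap (1857 and 1673 units), which encodes a protein associated with the phosphatase CD45 and is not itself a phosphatase. Ptprs and Ptpre differed most, by -0.42 and 0.37. Of 20 other phosphatases above the floor 0 were past 2-fold, beside 2.72% of all genes. Ubash3a and Ubash3b, which encode phosphatases that restrain T cell receptor signalling, read 568 and 319.9 units and 87.0 and 47.3 units, with differences of -0.83 and -0.88.

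**Figure D4:**
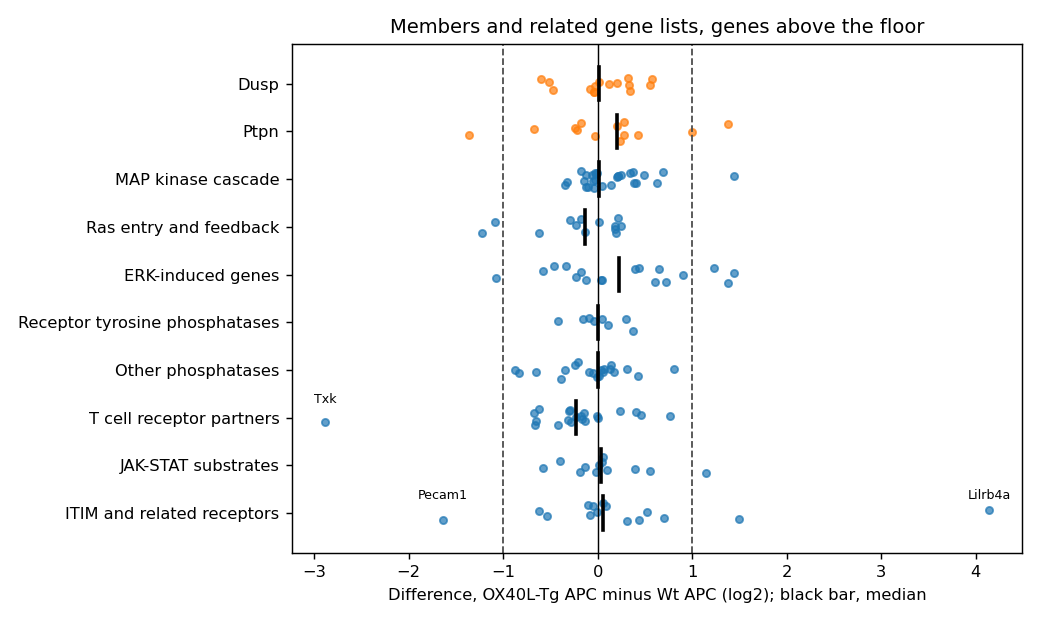
Differences (log2, OX40L-Tg APC minus Wt APC) of the Dusp and Ptpn genes and of 8 lists of related genes above the floor, 1 point per gene, with a black bar at the median and dashed lines at 2-fold. The medians lie between -0.23 (T cell receptor partners) and 0.22 (ERK-induced genes), and Lilrb4a, Pecam1 and Txk are the named points farthest out.

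Genes listed as markers of other cells also differed between the arrays. MHC class II genes had a median of 0.41, with 8 of 9 above the floor higher and a summed level of 3025 and 4025 units over the 10 measured. B cell markers had a median of 0.25, with 8 of 9 higher and a sum of 1084 and 1618 units. Most of the difference in this sum lay in Fcer2a (259 and 520 units) and Cd79b (166 and 313 units). Blk differed by -0.15, and Cr2, Pax5, Ebf1 and Vpreb3 were below background on both arrays. Dendritic cell markers had a median of 0.35, with 7 of 8 higher and a sum of 1655 and 2563 units. That sum differed mainly through Batf3 (95.1 and 574 units), Ccl22 (518 and 764 units) and Ccl17 (55.1 and 149.6 units). Flt3 differed by -0.09, and Itgax, Zbtb46, Xcr1 and Cd209a were below background on both arrays. NK cell markers had a median of -0.21, with 3 of 7 above the floor higher and a sum of 686 and 3397 units. Gzma made up most of that sum with OX40L-Tg APC, at 104 and 3048 units. Eomes read 221 and 65.1 units, Klrd1 was at least 2.06-fold lower, and Ncr1 and Klrb1c were below background on both arrays. The 13 macrophage and 8 neutrophil markers measured were all below background on both arrays. Of the erythroid markers only Hba-a1 was above background, at 1161 and 207 units. Which cells carried these transcripts was not tested, nor was the part of other cells in the phosphatase differences.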

How the data were processed

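Each of the 2 samples was hybridised to 1 Affymetrix HT MG-430 PM array. The authors deposited linear intensities per probe set. RMA made them, per the submitters' processing notes, and its version and the arrays normalized together are not given in the sources used here. RMA equalises the arrays and compresses low intensities, which can alter the differences of weakly expressed members. The plan foresaw log2 for linear values, and log2 was taken first. Of 45141 probe sets, 28898 had 1 gene symbol in the platform annotation, 551 had several and name no gene, and 15692 were unlisted. A gene took its probe set with the highest mean. Each array's median was the floor, to be reached on at least 1 array. Members and lists were chosen with earlier results of these data known. Named are the members above background, in full those of at least 1.5-fold and the main T cell members, and of each list the genes past 2-fold or up to 2 with the largest difference. Fyn, Cd3e, Cd3g, Stat4, Stat5a, Map3k8, Mapkapk2 and the marker genes were named outside that rule, after their values were seen. Promoter letters came from RefSeq (GRCm38.p6). A single array per group allows no test, and the number of arrays limits the precision. The 9 alternative settings changed the probe set rule, floor, background filter, pseudocount and scaling. Raising values below background to that level was added after seeing the data. Lowess (span 0.3) came from statsmodels 0.14.6, figures from matplotlib 3.10.9, and the rest from pandas 2.3.3 and numpy 2.4.6 in Python 3.11.15. The step that reads gene differences was tested on simulated arrays, with changes planted in bright genes only. The bounds, the promoter search and changes in dim genes were not tested in this way.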

Additional observations from a re-analysis of the deposited data

How the results depend on the processing

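Over 14 named members and 9 alternative settings, 121 of 124 differences moved by less than the SD of 0.14 between probe sets of a gene, and 3 moved by more. They were Dusp16, at 0.24 with the mean over probe sets, and Ptpn4, at 0.99 with a pseudocount of 16 units and 0.86 with values below background raised to the background level, a setting chosen after seeing the data. Only Ptpn11 changed sign, to 0.04 with the mean over probe sets. Many of the 124 values could not move. Changes of floor and filter only select genes, and a member with 1 probe set keeps its value under the mean. Raising dim values leaves bright members as they were. The 121 therefore does not measure how firm the differences are. The count of Ptpn genes past 2-fold was 2 in the main setting and 1 with the floor at the 75th percentile, which removes Ptpn4, and 1 with the pseudocount. The count past 1.5-fold was 4, and 2 with that floor. The 1 Dusp gene past 1.5-fold became 0 with the pseudocount. The median of the Ptpn genes, 0.20 in the main setting, was -0.024 with no floor, -0.10 with the floor at the 75th percentile and -0.024 without genes below background on both arrays. The median of the ERK-induced genes was 0.40 with only the probe sets lacking the suffix s, x or a, and 0.041 with no floor, with the floor at the 75th percentile and without genes below background. That suffix filter also gave medians of -0.13 for the JAK and STAT list and 0.31 for the inhibitory receptors. Its counts past 2-fold were 0 in the MAP kinase cascade, 0 among T cell receptor partners and 1 among inhibitory receptors. With the mean over probe sets the inhibitory receptors had a median of 0.25 and the Ras regulators 1 gene past 2-fold. Under that higher floor the medians were 0.026 for the Ras regulators and 0.44 for the inhibitory receptors, and the counts were 0 in the MAP kinase cascade, 1 among Ras regulators and 1 among inhibitory receptors. The pseudocount left 0 in the MAP kinase cascade and 1 among Ras regulators. With dim values raised to background the Ptpn median was 0.00, the ERK-induced median 0.041, and the counts past 2-fold were 1 among Ptpn genes, 0 in the MAP kinase cascade and 1 among Ras regulators. The higher floor and the background filter take in fewer genes, while having no floor takes in more. The cause of the other shifts was not tested. No paired analysis was possible because each group has 1 array. For the same reason no array could be left out. The background level stands in for detection calls, so members near it, such as Ptpn4, Ptpn13, Ptpn14 and Dusp14, have uncertain folds.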

Other observations

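The chromosomal neighbours of the 4 phosphatase genes that differed by at least 1.5-fold and were above background were read as well, a choice made after their values were seen. For Ptpn22, the 2 nearest protein-coding genes on either side in the RefSeq table were Bcl2l15 and Ap4b1 on one side and Rsbn1 and Phtf1 on the other. Bcl2l15 was below background, and Ap4b1 (218 and 202 units), Rsbn1 (309.2 and 308.3 units) and Phtf1 (233 and 195 units) differed by between -0.26 and 0.00, against -1.36 for Ptpn22. Beside Ptpn12, Gsap, known as an activator of gamma-secretase, read 51.1 and 18.5 units, lower by at least 1.34-fold, while Rsbn1l differed by -0.13 and Tmem60 by 0.07.

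Dusp22 lies beside Irf4, the transcription factor induced by T cell receptor strength. Irf4 read 2669.7 and 3461 units, a difference of 0.37, whereas Dusp22 differed by -0.60. Uqcrfs1, on the other side of Dusp22, differed by -0.15. The neighbours of Ptpn4 that were above background, Tmem185b and Tmem177, differed by 0.19 and -0.25. These are values of 2 arrays with no replicate.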
